A study of Homo sapiens with 9 samples.

Results

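The comparison described here is between 2 stable keratinocyte lines that carried the same fusion protein with and without a nuclear address. HaCaT is a spontaneously immortalised human epidermal keratinocyte line. WT-actin cells expressed β-actin fused to green fluorescent protein, and NLS-actin cells expressed the same fusion with a nuclear localization sequence that sends it into the nucleus. The parental HaCaT line carried no construct and served as the reference for which line had moved. Total RNA was hybridised to Affymetrix U133 Plus 2.0 arrays, with 3 arrays per line and 9 in all. The 6 NLS-actin and WT-actin arrays made up the comparison, and all 19775 genes with a probe set of 1 symbol were tested. Both actin lines were made by transfection of linearized plasmid and drug selection, and each construct was carried by a single line, so a difference between the constructs and a difference between the lines cannot be told apart. The methods describe selection to a stable fluorescent population and 3 experimental replicates per line, without saying whether the replicates were separate cultures, so the p-values measure only the spread between these arrays.

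Actin shuttles between cytoplasm and nucleus. Nuclear monomeric actin binds the myocardin-related transcription factors (MRTFs) and keeps them from activating serum response factor (SRF), whose targets include many genes of the actin cytoskeleton. Actin is also a subunit of chromatin remodelling complexes and associates with RNA polymerases. WT-actin adds actin and a fluorescent protein without forcing them into the nucleus, and it was compared with NLS-actin here for that reason.

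All 3 lines had the profile of keratinocytes. Of the 14 keratinocyte markers, 10 were measured, and all 10 lay above the median level of all genes, with KRT5 and KRT14, the basal keratin pair, at mean MAS5 signals of 11151 and 10983 in NLS-actin and 9805 and 11167 in WT-actin. None of these 10 passed the test between the actin lines. Of the 10 fibroblast markers, 2 lay above the median level, COL1A1 among them (mean signals 633 in NLS-actin and 563 in WT-actin), and 2, PDGFRB and COL1A2, were higher in NLS-actin by an unadjusted p under 0.05 and over 2-fold, at mean NLS-actin signals of 20 and 16.3. Of the 6 melanocyte markers MITF was above the median level (2064 and 1968). None of either list passed, and their part in the results was not tested. The endothelial and leukocyte markers had no member above the median level, and their summed signals were 84.5 to 241 and 38.6 to 95.1 on the NLS-actin arrays against 45.3 to 122 and 50.6 to 90.9 on the WT-actin arrays. ACTB itself, the gene of the construct, had signals of 22131, 15924 and 14097 in WT-actin, 14473, 13886 and 15475 in NLS-actin and 8874, 13241 and 14977 in the parental line, and whether its probe set also reads the transgene was not given in the sources used here. In RNA of whole cultures, fewer cells of a kind and less RNA per cell cannot be told apart. Within lines, 3 arrays lay at 1 end of an axis that held 57.8% of the within-line variance, here named the arrays that stood apart. They were NLS-actin replicate 2, WT-actin replicate 1 and the second parental array, with loadings of -0.526, -0.479 and -0.356. The other arrays had loadings from 0.08 to 0.365, the highest on WT-actin replicate 3. The log2 ratio of the 3′ to the 5′ ACTB control probe set, a measure of RNA integrity, was highest on WT-actin replicate 1 (3.898) and NLS-actin replicate 2 (3.68), against 1.932 to 2.996 on the other 7. The GAPDH ratio was high on WT-actin replicate 1 (1.618) but at 0.717 on NLS-actin replicate 2, within the 0.472 to 0.96 of the others. The part of these arrays and of RNA integrity in the single results was not tested beyond the counts given below with and without them.

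NLS-actin and WT-actin cells differed at 144 genes with a Benjamini-Hochberg adjusted p under 0.05 in limma, 0.728% of the genes tested. NLS-actin signals exceeded those of WT-actin at 77 genes (0.389%) and lay under them at 67 (0.339%). At each of the 144 genes all 3 arrays of one line lay beyond all 3 of the other. Such separation by itself was found for 8.12% of all genes in the higher and 5.73% in the lower direction. The differences were large: 125 of the 144 exceeded 2-fold, and 48 higher and 28 lower genes exceeded 4-fold. Of the 144, 57 lay below the median level of all genes. When calls were made by an unadjusted p under 0.05 and more than 2-fold instead, here named the methods' thresholds, the counts were 566 genes (2.86%) up and 394 (1.99%) down in the NLS-actin line. The median over all genes was 0.03 on the log2 scale, and 0.01 after quantile normalization. Without the 3 arrays that stood apart 160 genes passed, of which 108 were among the 144, and the count fell to 66, 70 and 75 without NLS-actin replicate 1, NLS-actin replicate 3 and WT-actin replicate 2.

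The parental arrays show which line had moved. Each called gene was placed by where its parental mean fell on the way from the WT-actin mean, at 0, to the NLS-actin mean, at 1. For 42 genes the parental mean lay within 0.3 of WT-actin, so NLS-actin was the line that departed, and 30 of these 42 were lower in NLS-actin cells. For 37 genes the parental mean lay within 0.3 of NLS-actin, so WT-actin departed, and 31 of these 37 were genes that WT-actin cells had at a lower level. For 61 genes the parental mean lay between 0.3 and 0.7 and the lines had moved apart in opposite directions, 32 higher and 29 lower in NLS-actin. In the remaining 4 both lines moved the same way by unequal amounts. Against the parental line itself, with the same fit, 26 genes (0.131%) passed for NLS-actin and 33 (0.167%) for WT-actin over the whole array, and of the 144 genes 17 passed for NLS-actin alone, 22 for WT-actin alone, 2 for both and 103 for neither. Among the 61 genes placed as moving in opposite directions, 57 passed for neither. The classes are therefore a description of means, and the contrasts share arrays.

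**Figure D1:**
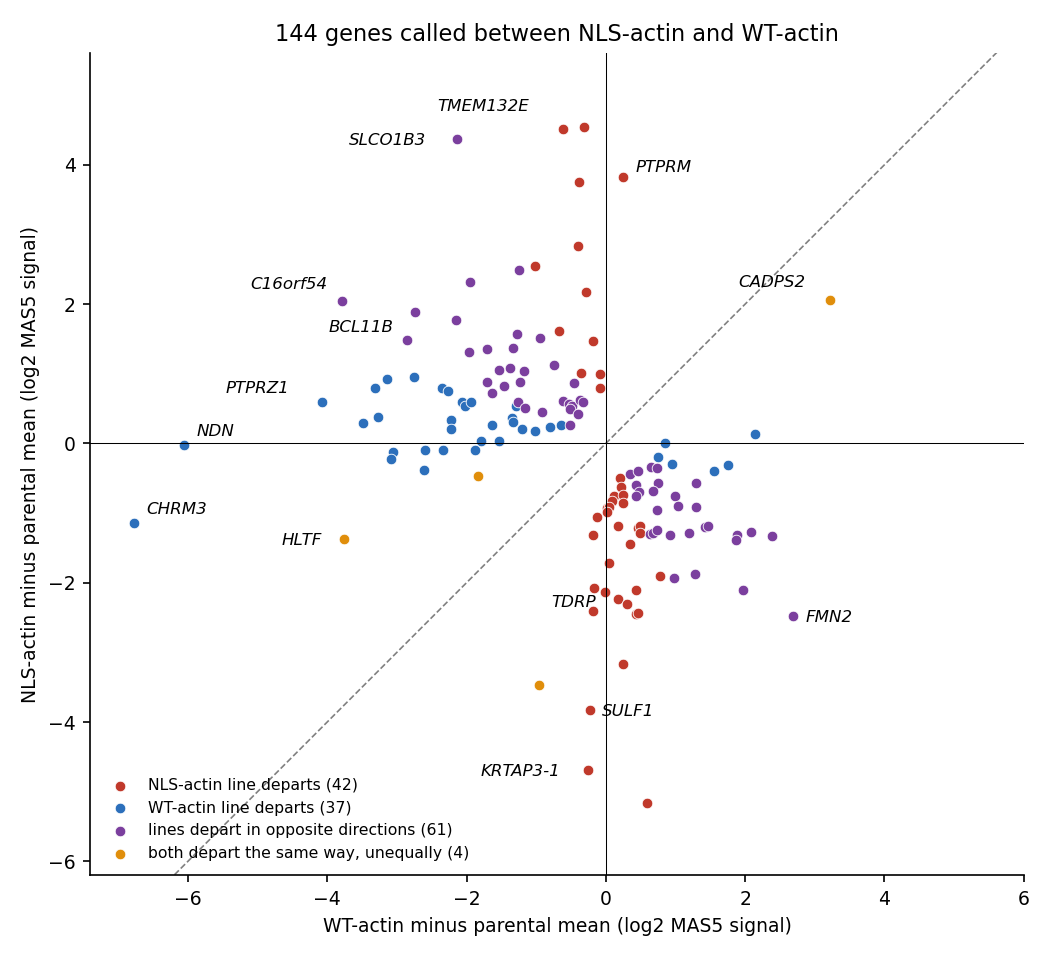
Each point is 1 of the 144 called genes, with the WT-actin minus parental difference on the x axis and the NLS-actin minus parental difference on the y axis, both as log2 MAS5 signal, and the dashed line marks equal values. Genes spread along the vertical axis where NLS-actin departed (42), along the horizontal axis where WT-actin departed (37) and into the upper left and lower right where the lines parted in opposite directions (61).

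Among the genes at which WT-actin departed, the largest difference was NDN, an imprinted gene that encodes the growth suppressor necdin. NDN signals were 1538, 1270 and 678 in the parental line, 851, 1289 and 1157 in NLS-actin and only 22.1, 10.4 and 19.7 in WT-actin. The WT-actin arrays therefore lay far below both other lines, which overlapped. The log2 difference between NLS-actin and WT-actin was 6.03 ± 0.36 (SE, adjusted p = 2.2e-05), that between WT-actin and parental -6.05 (adjusted p = 2.12e-05) and that between NLS-actin and parental -0.02. NDN passed the test in each of the 21 alternative settings. The other 15 measured imprinted genes held no call, beside 0.728% of all genes.

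PTPRZ1, a receptor-type tyrosine phosphatase that binds pleiotrophin, followed the same order. Its signals were 858, 681 and 312 in the parental line, 526, 1395 and 861 in NLS-actin and 52.3, 38.6 and 18.8 in WT-actin, a log2 difference of 4.67 ± 0.47 (adjusted p = 0.000666). TNFRSF10D, a decoy receptor for the death ligand TRAIL, had 25.7, 20.4 and 31.7 in WT-actin, 440, 329 and 552 in NLS-actin and 225, 203 and 251 in the parental line (log2 difference 4.08 ± 0.30, adjusted p = 6.53e-05). Of 30 measured death receptor and BCL2 family genes it was the 1 call, beside 0.728% of all genes. NLS-actin was above every parental array at TNFRSF10D, although that step did not pass (adjusted p = 0.488). Its other probe set gave 1.03 between the actin lines, with a mean of 2.55, and the gene was below the median level. CHRM3, the M3 muscarinic acetylcholine receptor, had 15.7, 2.24 and 1.73 in WT-actin against 112, 332 and 204 in NLS-actin and 339 to 512 in the parental line, so its WT-actin level was close to the bottom of the scale. Its 6 probe sets ran from -0.04 to 6.59 on the log2 scale, with a mean of 3.38 beside 5.64 for the one used.

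Both PTGS1 and SLCO2A1, which act on prostaglandins and were paired here after their values were seen, were in this class. PTGS1, the constitutive cyclooxygenase, had 138, 72.4 and 182 in WT-actin, 850, 1292 and 734 in NLS-actin and 1082, 1024 and 931 in the parental line (log2 difference 2.93 ± 0.32, adjusted p = 0.000985). SLCO2A1, the prostaglandin transporter, had 135, 245 and 311 in WT-actin, 1426, 746 and 1510 in NLS-actin and 1323, 833 and 965 in the parental line (2.43 ± 0.34, adjusted p = 0.0052). At both genes NLS-actin and parental arrays overlapped and the WT-actin arrays lay below them. PLEKHH2, SIPA1L2 and ZNF114 were 7.25-, 5.83- and 4.72-fold higher in NLS-actin cells by the same pattern, with WT-actin minus parental differences of -3.09, -2.02 and -2.34 that each passed (adjusted p = 0.0082, 0.0366 and 0.00308).

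Only 6 genes of this class were higher in WT-actin than in both other lines, and 2 of them were large and bright enough to be named by the rule. VGLL1, a cofactor of TEAD transcription factors, had 4341, 4044 and 2919 in WT-actin against 860, 932 and 876 in NLS-actin and 1095, 1407 and 877 in the parental line (log2 difference -2.06 ± 0.20, adjusted p = 0.000643). Its 3 probe sets disagreed, from -2.35 to 1.94. ZDHHC2, a palmitoyltransferase, was 3.89-fold lower in NLS-actin than in WT-actin (adjusted p = 0.00235), with WT-actin 1.56 above the parental mean on the log2 scale (adjusted p = 0.0212).

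Among the genes at which NLS-actin departed, SULF1 stood first by its p. SULF1 is a cell surface sulfatase that edits heparan sulfate and so alters the binding of growth factors. Its signals were 39.4, 42.7 and 30.5 in NLS-actin cells, 467, 428 and 458 in WT-actin cells and 616, 401 and 595 in the parental line. The NLS-actin arrays lay far below both other lines, which overlapped. The log2 difference was -3.60 ± 0.26 against WT-actin (adjusted p = 6.53e-05) and -3.83 against parental (adjusted p = 9.28e-05), and all 3 of its probe sets fell, from -3.60 to -1.92. It was called in each of the 21 alternatives. Of 21 measured heparan sulfate genes it was the 1 call, beside 0.728% of all genes. TDRP, a nuclear protein known from the testis, had 104, 154 and 131 in NLS-actin, 667, 783 and 608 in WT-actin and 725, 547 and 550 in the parental line (-2.41 ± 0.23, adjusted p = 0.000506), and it too was called in all 21.

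ITGA4, the α4 integrin subunit that pairs with β1 to bind fibronectin and VCAM-1, was down-regulated in NLS-actin cells. Its signals were 426, 315 and 424 in NLS-actin, 1537, 1310 and 1189 in WT-actin and 1185, 1011 and 971 in the parental line, so the lower line did not overlap the others. The log2 difference was -1.80 ± 0.19 against WT-actin (adjusted p = 0.000812) and -1.45 against parental (adjusted p = 0.0111), and all 4 of its probe sets were negative, with -2.13 the lowest. Among the 15 integrin subunits measured ITGA4 was the 1 call, beside 0.728% of all genes.

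Of the 25 measured chemokine and inflammation genes 3 were called, beside 0.728% of all genes, and 1 of them, CCL2, was in this class. CXCL1 and CCL26, a chemokine for eosinophils (196, 192 and 214 in NLS-actin, 57.9, 60.4 and 71.1 in WT-actin, adjusted p = 0.0147), were higher in NLS-actin and fell in other classes. CCL2, a chemokine that attracts monocytes, had 390, 367 and 181 in NLS-actin against 2358, 1533 and 728 in WT-actin and 1481, 1278 and 2009 in the parental line (log2 difference -2.22 ± 0.40, adjusted p = 0.0234). WT-actin replicate 3 was the lowest of the 6 other arrays and still above all NLS-actin arrays. IRAK2, a kinase downstream of the interleukin-1 receptor, had 63.2, 107 and 82.2 in NLS-actin against 346, 254 and 332 in WT-actin and 362, 292 and 395 in the parental line (-1.91 ± 0.27, adjusted p = 0.00662), although another of its 3 probe sets gave 2.52 and the mean of all 3 was positive (0.99). STAT3, the transcription factor of interleukin-6 family cytokines, fell by 0.92 ± 0.17 on the log2 scale against WT-actin (adjusted p = 0.0247) and by 1.06 against parental (adjusted p = 0.0351). Its NLS-actin signals were 1526, 1171 and 1151, and its WT-actin signals were 2043, 2483 and 2770. SPRY1, a feedback inhibitor of receptor tyrosine kinase signalling, was 3.21-fold lower (adjusted p = 0.0491).

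Fewer genes rose through a move of NLS-actin. PTPRM, a receptor-type tyrosine phosphatase that binds itself on the neighbouring cell, had 433, 852 and 572 in NLS-actin, 60.7, 32.5 and 62.6 in WT-actin and 39.3, 78.6 and 23.7 in the parental line. The WT-actin and parental arrays overlapped, and the difference was 3.58 ± 0.46 against WT-actin (adjusted p = 0.00332) and 3.83 against parental (adjusted p = 0.00662), with both probe sets of the gene at 3.58 and 3.61. NEFL, the neurofilament light chain, had 7831, 8049 and 8227 in NLS-actin against 2880 to 4642 in WT-actin and 3819 to 4343 in the parental line (1.08 ± 0.17, adjusted p = 0.0101). HOGA1 and ABCG1, a mitochondrial aldolase and a sterol exporter, were 4.85- and 5.46-fold higher than in WT-actin (adjusted p = 0.0247 and 0.0489), but neither passed against parental (adjusted p = 0.263 and 0.181).

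**Figure D2:**
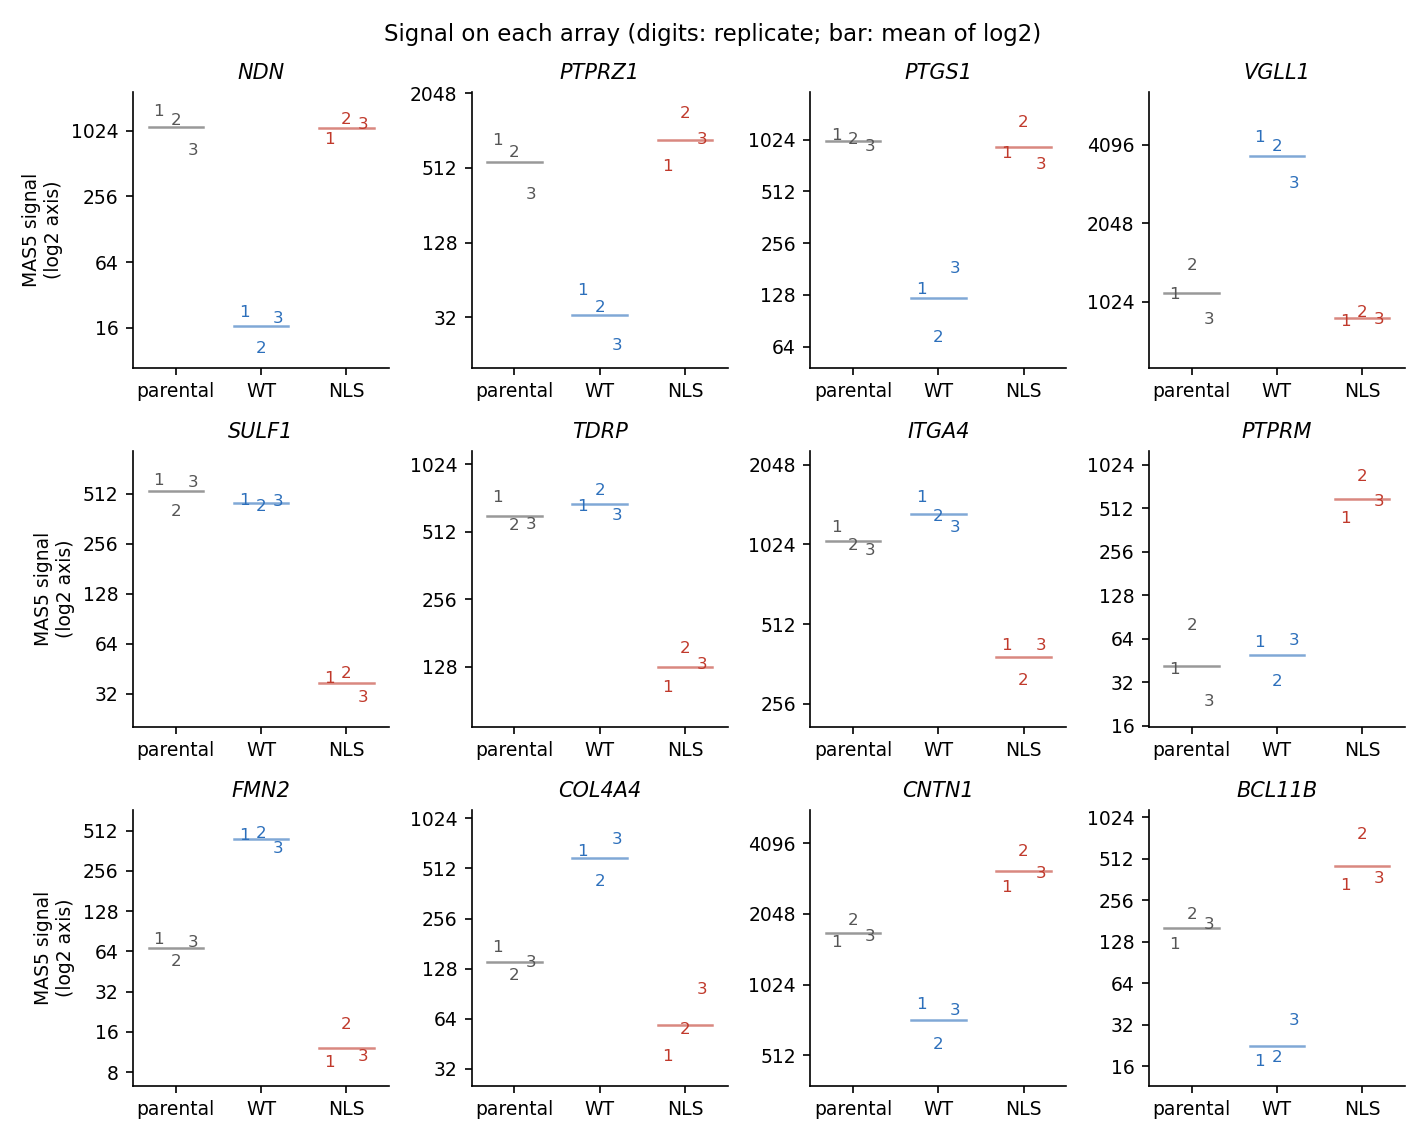
MAS5 signal on a log2 axis for 12 called genes on each array, with the digit giving the replicate and the bar the mean of the log2 values of a line. In the top row WT-actin is the line apart from the parental level, in the middle row NLS-actin is, and in the bottom row the parental arrays lie between the 2 actin lines.

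In the third class the parental level lay between the lines. FMN2, a formin that nucleates actin filaments, was the one gene of the 144 that passed against parental in opposite directions in both lines. Its signals were 9.51, 18.3 and 10.5 in NLS-actin, 53.8 to 78.9 in the parental line and 473, 487 and 374 in WT-actin. NLS-actin was 2.48 below (adjusted p = 0.031) and WT-actin 2.69 above the parental mean on the log2 scale (adjusted p = 0.0117), which left -5.18 ± 0.38 between the actin lines (adjusted p = 6.53e-05). The result is that of 1 probe set, since another of the 4 for FMN2 gave 0.97, and the gene was below the median level. Among the 40 measured genes of the actin nucleation and turnover list FMN2 was the 1 call, beside 0.728% of all genes. That list did not hold WASF3, which activates actin nucleation (-0.85, adjusted p = 0.0379), or CORO1A, an actin-binding coronin (2.22, adjusted p = 0.0247), and WT-actin departed at both.

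COL4A4, a chain of basement membrane collagen, had 38.1, 55.2 and 95.4 in NLS-actin, 117 to 171 in the parental line and 643, 426 and 766 in WT-actin (log2 difference -3.34 ± 0.36, adjusted p = 0.000985), with 3 probe sets from -4.71 to 1.47. CNTN1, a neural cell adhesion molecule, ran the other way, with 2649, 3778 and 3030 in NLS-actin, 1553 to 1913 in the parental line and 839, 571 and 792 in WT-actin (2.11 ± 0.19, adjusted p = 0.000485), and its 4 probe sets gave 1.67 to 2.40. BCL11B, a zinc finger factor of epidermal and T cell development, had 326, 771 and 368 in NLS-actin, 122 to 201 in the parental line and 17.4, 18.7 and 34.4 in WT-actin (4.34 ± 0.41, adjusted p = 0.000506), with 3 probe sets from -1.37 to 4.34. At these 3 genes no arrays of different lines overlapped. For CNTN1 and BCL11B the WT-actin step passed against parental (adjusted p = 0.0231 and 0.0129) and the NLS-actin step did not (0.171 and 0.327).

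Other genes with this order of means were HTRA1, a secreted serine protease (5.49-fold higher in NLS-actin, adjusted p = 0.00245), GJA1, the gap junction protein connexin 43 (2.14-fold higher, adjusted p = 0.0162), IL1R1, the signalling interleukin-1 receptor (2.35-fold higher, adjusted p = 0.0388), BMP7, a bone morphogenetic protein (3.64-fold higher, adjusted p = 0.0304) and SEMA5A, a guidance semaphorin (2.02-fold higher, adjusted p = 0.0468). At none of these did either step from the parental mean pass (adjusted p of 0.118 or more). Lower in NLS-actin by the same order were ELOVL7, a fatty acid elongase (4.67-fold, adjusted p = 0.000666), SLC39A8, a zinc transporter (3.85-fold, adjusted p = 0.00483), FILIP1L, a filamin A interacting protein (3.93-fold, adjusted p = 0.000985), DAB2, an endocytic adaptor (5.55-fold, adjusted p = 0.0472) and SH3KBP1, an adaptor of receptor endocytosis (2.28-fold, adjusted p = 0.00423). Probe sets of both signs were found for DAB2 (-3.41 to 2.38), SLC39A8 (-2.11 to 1.56) and FILIP1L (-1.97 to 0.61). SLCO1B3, an organic anion transporter, had 250, 298 and 220 in NLS-actin, 2.94, 10.1 and 0.748 in WT-actin and 9.95, 14.3 and 13.1 in the parental line. The WT-actin and parental arrays overlapped near the bottom of the scale, so its size (6.50 on the log2 scale, 4.44 with an offset) and its place in this class are uncertain. For 123 of the 144 genes the parental mean lay between the other 2 means, against 35.5% of all genes, and since a call needs a wide gap between the actin lines no more is read from that count.

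The 4 genes that moved the same way in both lines included CADPS2, a regulator of vesicle release. Its signals rose from 139 to 188 in the parental line to 625, 744 and 657 in NLS-actin and 1763, 1195 and 1641 in WT-actin, and both steps passed (adjusted p = 0.00207 and 2.52e-05). HLTF, a DNA translocase of replication fork repair, fell from 610 to 885 in the parental line to 72.5, 36.1 and 54.5 in WT-actin (adjusted p = 0.000169) and lay at 267, 322 and 239 in NLS-actin, a step that did not pass (adjusted p = 0.17). CXCL1, a chemokine for neutrophils, was at 466, 395 and 302 in WT-actin, 902, 1371 and 766 in NLS-actin and 1174 to 1620 in the parental line, so the lower line was WT-actin (adjusted p = 0.00839 against parental).

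None of the genes of contraction, adhesion and survival that the study followed by PCR passed the test between the actin lines. The paper compared NLS-actin with the parental line instead. It reported MYL9, ITGB1, PAK1 and VCL as lower and NFATC1 and BCL2 as higher, on its arrays and by PCR. Which probe sets it read was not given in the sources used here. On the brightest probe set of each gene, NLS-actin minus parental was -1.61 for MYL9, -0.04 for ITGB1, 0.18 for VCL, -0.07 for BCL2 and 0.30 for NFATC1. For WT-actin minus parental the values were -0.32, 0.33, 0.18, -0.90 and -0.16 in that order. No step from the parental line passed in limma (adjusted p of 0.356 or more). By the methods' thresholds the NLS-actin step of MYL9 passed (unadjusted p = 0.00425 in limma), and no other of these steps did. MYL9, which encodes a light chain of the myosin motor, had signals of 44.8, 38.7 and 40.1 in NLS-actin, 56.0, 83.2 and 219 in WT-actin and 119, 111 and 150 in the parental line. All NLS-actin arrays were lower, but the WT-actin arrays spread widely and the difference of -1.29 ± 0.46 on the log2 scale did not pass (adjusted p = 0.342), with a second probe set at 1.51. ITGB1, the β1 integrin, had 6957, 5536 and 7612 in NLS-actin against 8937, 8475 and 8392 in WT-actin and 6390 to 7111 in the parental line, a difference of -0.37 ± 0.14 (adjusted p = 0.36), and its 7 probe sets were of both signs, with -3.03 the lowest. There it was WT-actin that lay above the other lines. VCL, vinculin of focal adhesions, was at -0.01 ± 0.13 with its other probe set at -2.44, BCL2, a survival protein, at 0.83 ± 0.62 and NFATC1, a calcineurin-regulated factor, at 0.46 ± 0.51, with overlapping arrays in each case. PAK1 had no probe set that was assigned to that symbol alone and was not analysed here.

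**Figure D3:**
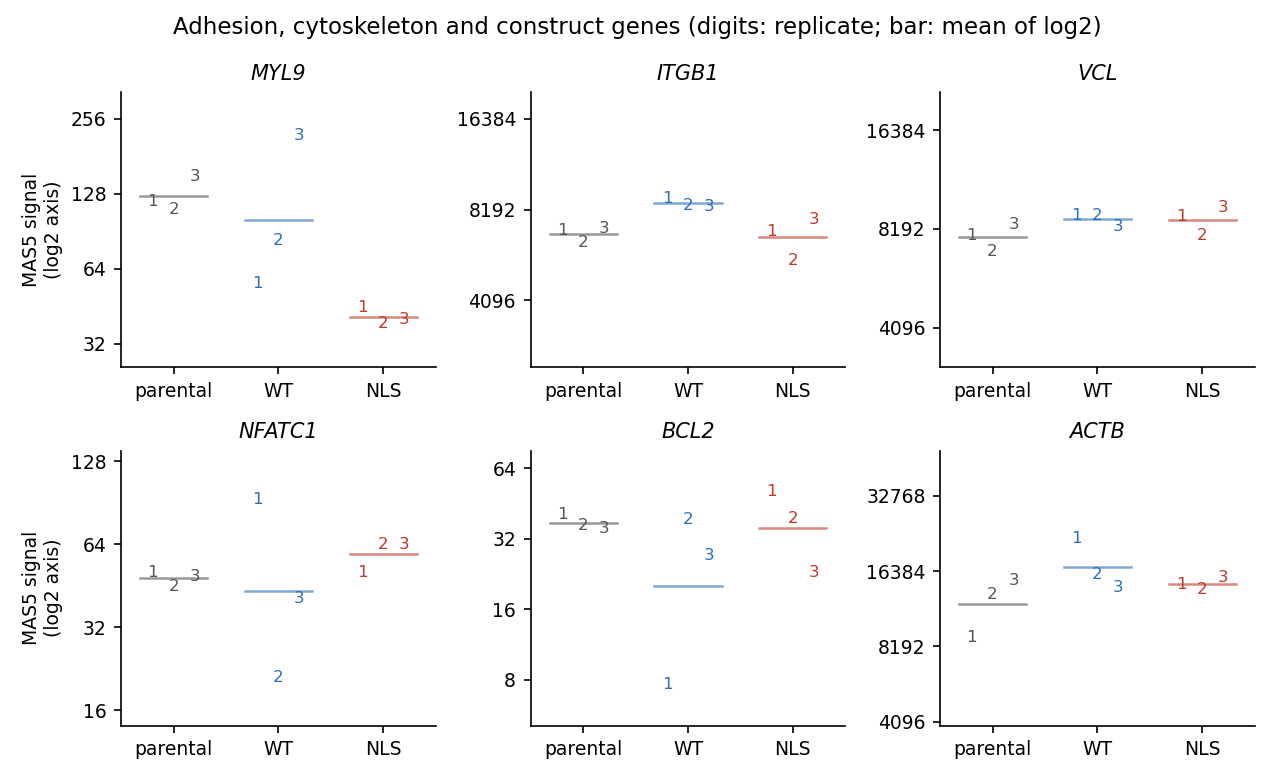
MAS5 signal on a log2 axis on each of the 9 arrays for MYL9, ITGB1, VCL, NFATC1, BCL2 and ACTB, with the digit giving the replicate and the bar the mean of the log2 values of a line. The 2 actin lines are separated at MYL9 (all NLS-actin arrays below 44.9) and ITGB1 and overlap at the other 4 genes.

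None of the 23 measured SRF-MRTF targets passed between the actin lines, beside 0.728% of all genes. At that share, the absence of a call here and in the groups that follow is not read as a result. By the methods' thresholds 2 targets were lower (MYL9 and CALD1, beside 1.99% of all genes) and none higher. A difference below 0 was found for 16 of the 23, with a median of -0.12 beside 0.03 for all genes. MYL9, CALD1 (-1.14), a caldesmon, and TAGLN (-0.96), transgelin, were the lowest, and CNN1 (2.10), a calponin, was the highest of the list. The 25 actomyosin genes had a median of -0.08 and the 29 focal adhesion adaptors and kinases -0.04, with no call in either. Of the 15 SRF-TCF immediate early genes none passed (median 0.08). Among the 14 genes of nuclear actin transport and MRTF control, SYNE2, which links the nuclear envelope to actin, was higher in NLS-actin (1188, 1609 and 1266 against 708, 659 and 433, adjusted p = 0.0205). It was WT-actin that departed from the parental 1134 to 1277. IPO9 and XPO6, the importin and exportin of actin, were at 0.20 and 0.23 without passing (adjusted p = 0.823 and 0.801), and the 20 actin-containing chromatin complex genes held no call (median 0.00).

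Alarmins, which keratinocytes make under stress, and genes of the upper epidermis had mostly positive differences. Of the 12 measured stress keratins and alarmins, 11 had a positive difference, beside 53.4% of all genes, with a median of 1.71, of 0.70 for NLS-actin minus parental and of -0.74 for WT-actin minus parental. PI3, the elastase inhibitor elafin, was the one call, with 603, 345 and 251 in NLS-actin, 148 to 235 in the parental line and 68.8, 38.4 and 87.5 in WT-actin (adjusted p = 0.00911). S100A7, psoriasin, had 298, 403 and 193 against 115, 60.3 and 77.7 in WT-actin and did not pass (adjusted p = 0.0507). By the methods' thresholds 5 of the 12 were higher, beside 2.86% of all genes, and none lower, among them S100A8 (1.74), S100A9 (1.92) and SERPINB3 (1.69).

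Of 31 measured keratinocyte differentiation genes 22 had a positive difference, 2 passed (0.728% of all genes) and 7 were higher by the methods' thresholds (2.86% of all genes). The median was 0.58 between the actin lines, 0.22 for NLS-actin minus parental and -0.31 for WT-actin minus parental. SPRR1B, a precursor of the cornified envelope, had 1025, 2141 and 818 in NLS-actin, 412 to 779 in the parental line and 154, 171 and 414 in WT-actin (2.45 ± 0.42, adjusted p = 0.0186). KLK10, a skin kallikrein protease, had 3757, 4692 and 3955 against 1967, 2228 and 2392 in WT-actin (adjusted p = 0.0164), with the parental line at 2971 to 3913. TGM1 (2.55), transglutaminase 1, and KRT1 (3.82), keratin 1, were past the methods' thresholds only, and IVL (-0.04), involucrin, and KRT10 (-0.49), the partner of KRT1, were not. Desmoglein 4, DSG4, outside this list, had 196, 965 and 227 in NLS-actin against 15.9, 34.4 and 5.24 in WT-actin (adjusted p = 0.0121). NLS-actin replicate 2, one of the arrays that stood apart, had the highest value at SPRR1B, S100A7 and DSG4. The 10 measured basal keratinocyte genes held no call (median 0.21).

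**Figure D4:**
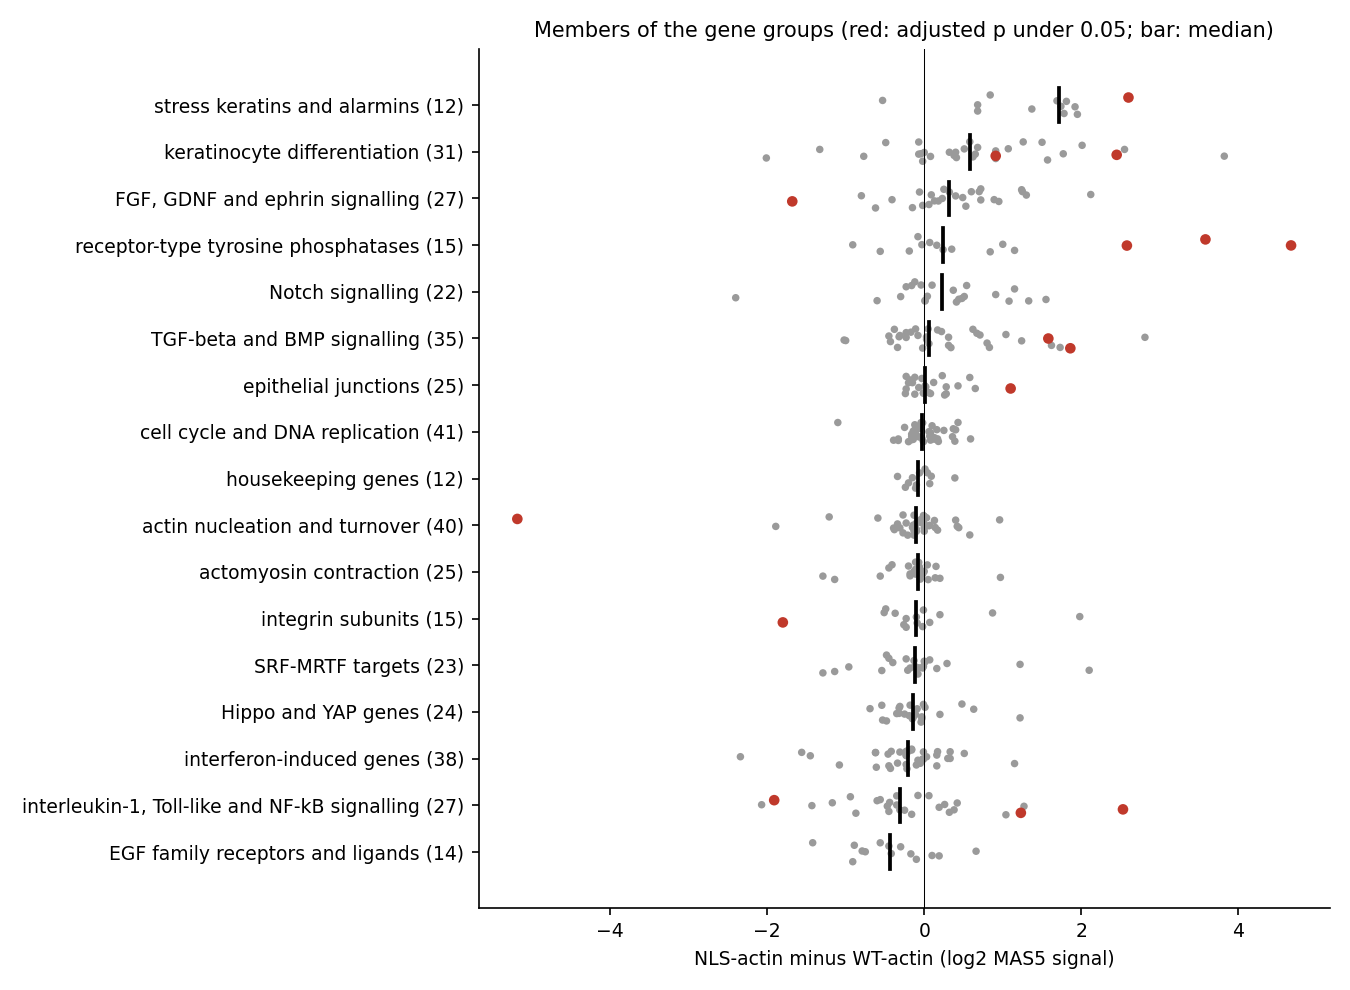
The NLS-actin minus WT-actin difference in log2 MAS5 signal (x axis) of each measured member of 17 gene groups, with red points for an adjusted p under 0.05, the black bar for the median and the number measured in parentheses. The alarmins (median 1.71) and differentiation genes (0.58) lie to the right, and the SRF-MRTF targets (-0.12), integrins (-0.10) and actomyosin genes (-0.08) lie near 0.

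Of 15 receptor-type tyrosine phosphatases, 3 were called, beside 0.728% of all genes, in a group chosen with earlier results known. All 3 were higher in NLS-actin: PTPRZ1 and PTPRM, described above, and PTPRG, with 108, 107 and 115 in NLS-actin against 24.1, 11 and 23.7 in WT-actin (2.58 ± 0.44, adjusted p = 0.0183), although its 4 probe sets ran from -1.73 to 2.58. By the parental position WT-actin departed at PTPRZ1, NLS-actin at PTPRM and both at PTPRG, where neither step passed (adjusted p = 0.296 and 0.805). Of 35 TGF-beta and BMP list members, a list that also held TGFA, 2 were called, beside 0.728% of all genes. They were BMP7 and LTBP1, which stores latent TGF-beta in the matrix (1.58 on the log2 scale, adjusted p = 0.0383). A further 4, BMP4 (1.04), SMAD6 (1.24), BMPR1B (1.73) and INHBB (2.81), were higher in NLS-actin than in WT-actin by the methods' thresholds (2.86% of all genes) and none lower. BMPR1B, a BMP receptor, was below the parental mean in both lines, by -3.37 in WT-actin (adjusted p = 0.00601) and -1.64 in NLS-actin (adjusted p = 0.267). Called among the 27 interleukin-1, Toll-like and NF-kB genes, beside 0.728% of all genes, were IL1R1, CD14 and IRAK2. IL1R1 and CD14, the lipopolysaccharide co-receptor (5.78-fold, adjusted p = 0.0437), were higher and IRAK2 was lower.

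No interferon-induced gene of 38 was called, beside 0.728% of all genes. By the methods' thresholds 3 were lower, CXCL10 (-2.34), MX2 (-1.56) and MX1 (-1.45), beside 1.99% of all genes, and none higher. MX1, an antiviral GTPase, had 264, 370 and 296 in NLS-actin, 803, 1098 and 717 in the parental line and 2480, 571 and 416 in WT-actin. The NLS-actin arrays lay below all others, and WT-actin replicate 1, one of the arrays that stood apart, was the highest. The 14 EGF family receptors and ligands had the lowest median of the 42 groups, -0.44, with no call, HBEGF at -0.79 and EREG at -0.89. Of the 42 groups 22 held no called gene and 36 had a median within 0.25 of 0, including cell cycle and DNA replication (41 genes, -0.03), death receptors and the BCL2 family (0.00) and housekeeping genes (12, -0.08). FZD3, a Wnt receptor, was the 1 call among 36 Wnt genes (2.51-fold lower, adjusted p = 0.045), beside 0.728% of all genes.

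Because SRF binds the CArG box, the promoters of the called genes were searched for it. RefSeq promoters of GRCh38.p14, each from 250 bases before to 50 after the annotated start, were matched for 114 of the 144 genes, and the motif as a palindrome was read on both strands at once. It was present in 1 of 61 promoters of genes higher in NLS-actin (1.64%) and in 1 of 53 of the lower genes (1.89%). The share was 1.21% over the promoters of the measured genes and 1.29% over all 27305 promoters in the table. The 2 genes were FILIP1L, lower in NLS-actin, and NDE1, which organises the mitotic spindle and was higher (0.87 ± 0.16, adjusted p = 0.0304) and is named here for its promoter. The bases upstream of both starts are shown with the CArG box in capitals, from chr3:99876174-99876423 on the minus strand and chr16:15643132-15643381 on the plus strand.
FILIP1L: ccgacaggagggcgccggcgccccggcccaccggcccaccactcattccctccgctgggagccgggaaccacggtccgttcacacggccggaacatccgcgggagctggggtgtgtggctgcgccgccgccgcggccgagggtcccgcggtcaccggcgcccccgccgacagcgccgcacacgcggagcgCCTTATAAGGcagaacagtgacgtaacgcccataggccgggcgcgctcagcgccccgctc
NDE1: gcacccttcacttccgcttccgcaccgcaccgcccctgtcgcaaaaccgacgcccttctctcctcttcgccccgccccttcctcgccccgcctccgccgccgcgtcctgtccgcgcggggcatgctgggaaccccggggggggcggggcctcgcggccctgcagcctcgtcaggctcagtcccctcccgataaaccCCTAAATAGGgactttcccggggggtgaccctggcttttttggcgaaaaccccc
FILIP1L signals were 171, 213 and 220 in NLS-actin, 398 to 522 in the parental line and 703, 737 and 935 in WT-actin, and NDE1 signals were 2099, 2306 and 1773 in NLS-actin against 994 to 1224 in WT-actin, so the 2 genes that hold the motif moved in opposite directions. The median number of CG dinucleotides was 28 (quartiles 9 and 35) in the promoters of the higher and 23 (7 and 32) in those of the lower genes, beside 22 (9 and 32) over the measured genes.

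Some called genes were neighbours on the chromosome. In RefSeq gene order 13 pairs of called genes had at most 5 measured genes between them, and 9 of the 13 pairs changed in the same direction. The called genes were split into 77 higher and 67 lower, and no expected number of pairs was computed. Over the called genes a median of 6 of the 10 nearest measured genes had the sign of the called gene. No more is read from these counts. KLK10 and KLK13, of the kallikrein cluster, were both higher in NLS-actin (0.91 and 2.36), as were TMEM200C and PTPRM (4.14 and 3.58) and ABCG1 and TFF2 (2.45 and 3.78). CHRM3 and FMN2, with 1 measured gene between them, went in opposite directions (5.64 and -5.18). CISD3, PCGF2 and PIP4K2B, with MIEN1 further along, were all lower in NLS-actin (-0.95, -0.79, -0.85 and -0.88).

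That last group lay in a longer run, which was looked for after the values were seen. Windows of 21 neighbouring genes above the median level, 9411 in all, overlapped with those beside them. Their median NLS-actin minus WT-actin difference ran from -0.79 to 0.53, and the outermost 2.5% of windows at either end lay beyond -0.23 and 0.38. The lowest window, from MRPL45 to ORMDL3, held 21 genes that were all lower in NLS-actin, among them ERBB2 (-0.56), the receptor tyrosine kinase HER2, and the transcription regulators MED1 (-0.80) and CDK12 (-0.55). Its median relative to the parental mean was -0.67, -0.35 and -0.78 on the NLS-actin arrays and 0.22, 0.07 and 0.14 on the WT-actin arrays, so NLS-actin was the line apart. The windows given from here on share no gene with it or with each other. That from SEPHS1 to MLLT10 had a median of -0.42 with 19 of 21 genes lower and NLS-actin arrays at -0.39, -0.37 and -0.32. The window from NT5C3B to EZH1 (median -0.41) held STAT3 and the histone methyltransferase EZH1 (-1.36), with 20 of 21 genes lower and NLS-actin medians of -0.55, -0.47 and -0.44 against -0.02 to 0.06 in WT-actin.

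At the other end, the window from POLR3K to ANTKMT had 20 of 21 genes higher in NLS-actin (median 0.53) with no called gene, and both lines moved: NLS-actin arrays were at 0.29, 0.32 and 0.21 and WT-actin arrays at -0.24, -0.24 and -0.23. The windows from GNPTG to TSC2 and from BRICD5 to ZNF205, on the same chromosome, both had a median of 0.47. In the window from TTC8 to UBR7 all 21 genes were higher in NLS-actin (median 0.48), and there WT-actin was the line apart, at -0.47, -0.40 and -0.40 against 0.00 to 0.06. The windows were picked for their differences, so the separation of the arrays in them is a description. NLS-actin replicate 2, at -0.35 in the MRPL45 window, was the array nearest the other line there. DNA copy number was not measured.

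**Figure D5:**
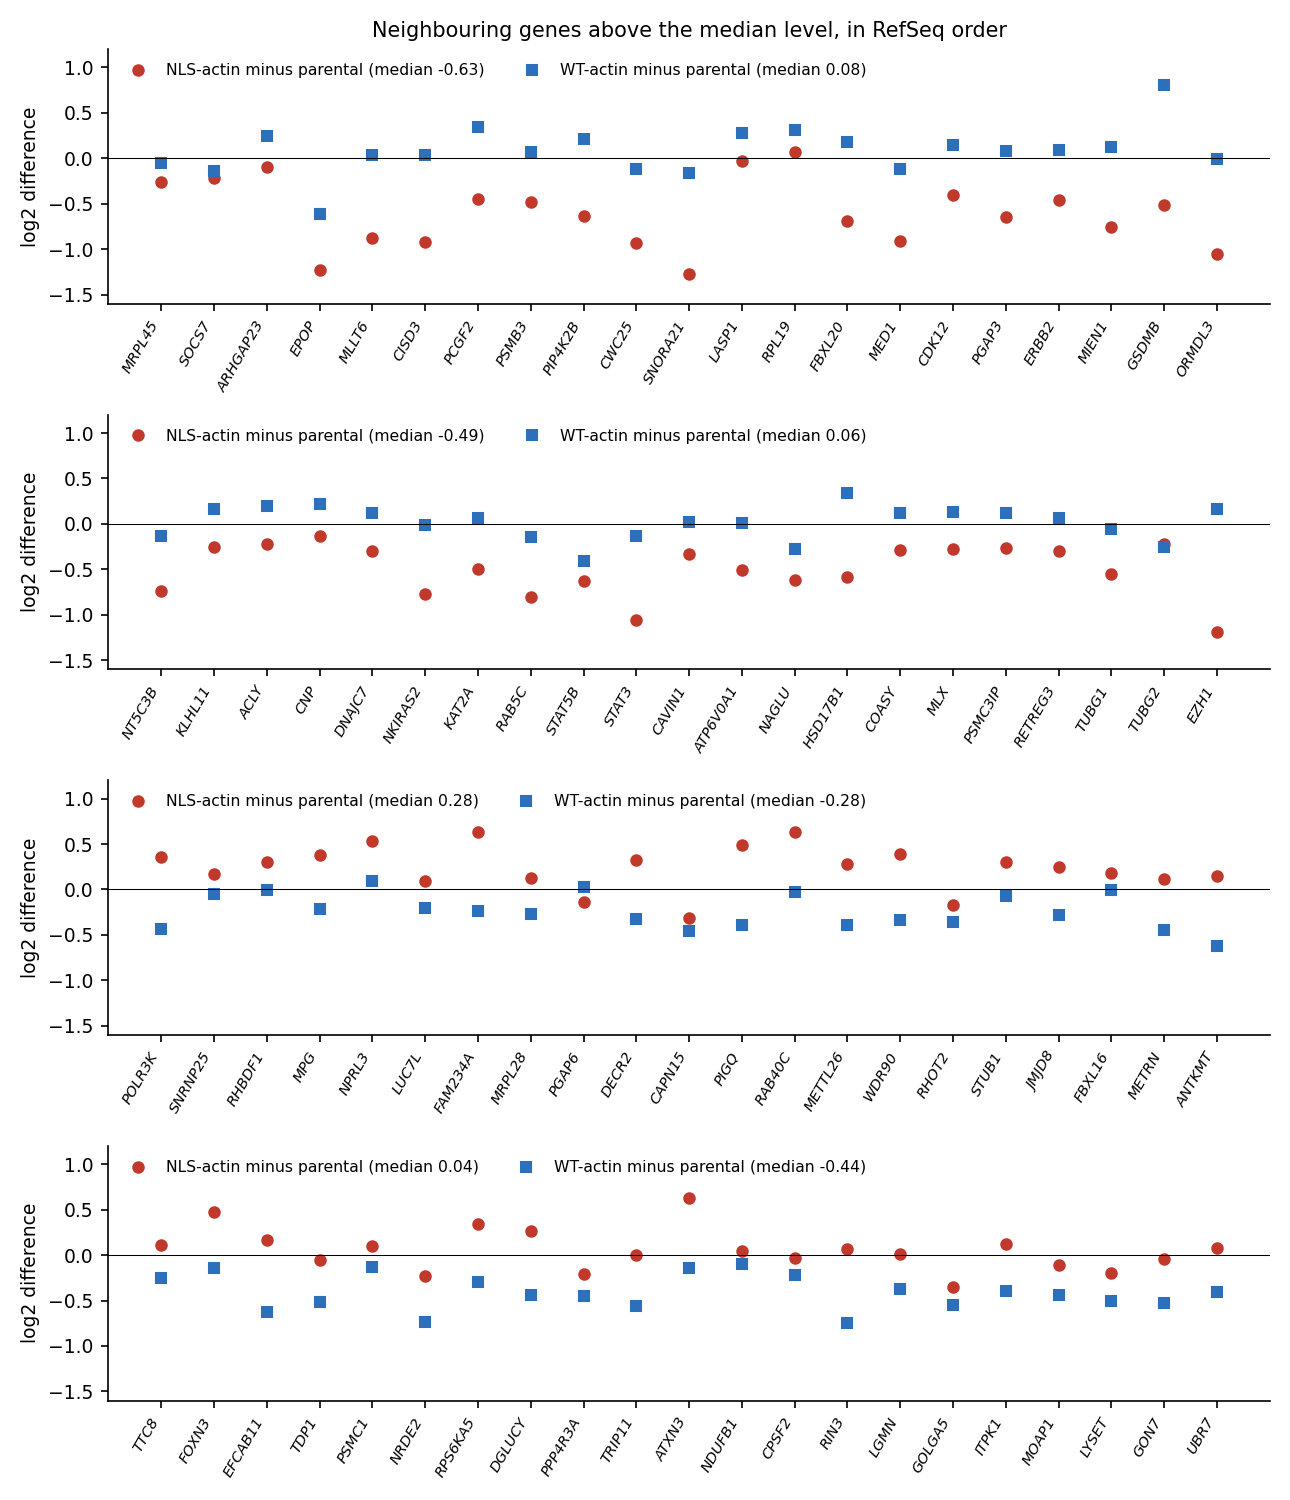
The NLS-actin minus parental (red) and WT-actin minus parental (blue) difference in log2 MAS5 signal (y axis) of 21 neighbouring genes in RefSeq order (x axis) in each of 4 windows. In the upper 2 windows NLS-actin lies below the parental level (medians -0.63 and -0.49) and WT-actin at it, in the POLR3K window the lines lie on either side (0.28 and -0.28), and in the TTC8 window WT-actin is the lower line (-0.44).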

How the data were processed

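RNA from 3 HaCaT lines, with 3 arrays per line, was measured on Affymetrix U133 Plus 2.0 arrays. The authors amplified total RNA and deposited MAS5 signal intensities on a linear scale, each array scaled to 1 common trimmed mean (500.04 to 500.06). The MAS5 version was not given in the sources used here. Of 54675 probe sets, 62 were controls, 41091 had 1 gene symbol, 1801 several and 11721 none. Each of 19775 genes was read from its brightest probe set.

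Log2 intensities, computed from the deposited signals, were fitted with limma 3.58.1 in R 4.3.3 (lmFit, eBayes with an intensity trend) over all 9 arrays with 1 mean per line, and p-values were Benjamini-Hochberg adjusted over all genes. A fold is 2 to the power of the log2 difference, and an error after ± is the SE of the fit. With 3 arrays in each line, the smallest p that exact permutation allows is 0.1. The number of arrays limits the precision. The script was tested on simulated data. Matplotlib 3.10.9 drew the plots, and pandas 2.3.3 under Python 3.11.15 was used for tables.

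The comparison, the 42 gene groups and the 6 marker lists were chosen with earlier results of these data known. Genes named were the 15 largest rises and falls above the median level (mean log2 signal of 7.19), called members of lists, called genes at which the lines moved in opposite directions, called neighbours, the PCR genes, ACTB and up to 3 members per list with the smallest p. NDE1 and the uncalled genes named for their role or place were chosen after their values were seen, as were the windows of neighbouring genes. Alternatives were other normalizations, offsets, filters, probe set rules, covariates and tests, and leaving out each array.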

Additional observations from a re-analysis of the deposited data

Results flagged for a closer look

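At 57 of the 144 called genes the NLS-actin and WT-actin arrays lay on opposite sides of every parental array. In 5 of these, above the median level, each actin line was also more than 2-fold from the parental mean. None of these 10 steps from the parental line passed, with adjusted p from 0.0557 for COL4A4 in WT-actin to 0.636 for PI3 in NLS-actin. The value given for each is the limma contrast between the actin lines on the log2 scale.

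COL4A4, a basement membrane collagen chain, was at -3.34. CST6, a cystatin protease inhibitor of the epidermis, was at -3.20, with signals of 94.2, 41.1 and 105 in NLS-actin, 129 to 261 in the parental line and 382, 658 and 1245 in WT-actin. BEND7, a BEN domain protein, was at -2.64 by 1 of 3 probe sets that ran up to 0.94 and had a mean of -0.62, with 77.6, 76.8 and 99.1 in NLS-actin, 162 to 258 in the parental line and 531, 509 and 533 in WT-actin. MN1, a transcriptional regulator, was at 2.22, with 236, 572 and 264 in NLS-actin, 130 to 227 in the parental line and 76.1, 53.8 and 87.1 in WT-actin. PI3, the elastase inhibitor elafin, was at 2.60.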

How the results depend on the processing

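Counts are given as genes higher and lower in NLS-actin, then as genes at which NLS-actin departed, WT-actin departed, both moved in opposite directions and both moved the same way. The reported counts were 77 and 67, then 42, 37, 61 and 4. Leaving out dim genes gave 43 and 41, then 23, 20, 38 and 3, and 109 and 80 by the methods' thresholds. Without the intensity trend they were 41 and 35, then 21, 24, 30 and 1. The 2 actin lines fitted alone gave 36 and 31. The mean of all probe sets gave 49 and 33, then 25, 20, 32 and 5. Without _x_at and _s_at probe sets they were 56 and 49, then 30, 24, 48 and 3. The Tukey test gave 8 and 9, then 4, 5, 8 and 0, and 256 and 225 by the methods' thresholds. The ACTB ratio as a covariate gave 155 and 152, then 86, 79, 132 and 10. A factor for the 3 arrays that stood apart gave 357 and 267, then 178, 170, 251 and 25, and leaving them out gave 87 and 73, then 40, 43, 71 and 6. The offset gave 399 and 250 by the methods' thresholds. The cause of these shifts was not tested.

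With 1 array left out the counts ranged from 33 to 69 higher and 29 to 71 lower, from 418 to 775 and 355 to 522 by the methods' thresholds, and by class from 13 to 40, 19 to 33, 27 to 52 and 2 to 4. The replicate block gave 87 and 75, then 44, 42, 71 and 5, with 128 of the 144 genes shared. The numbers did not pair the actin arrays, since the residual correlations were -0.60, -0.40 and 0.16.

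VGLL1 (1.94) and EYA1 (0.47) changed sign without _x_at and _s_at probe sets, as did IRAK2 (0.99) and TTN-AS1 (0.70) with the mean of all probe sets. The other 140 called genes kept their sign in each alternative in which they could be tested, at least 19 of the 21. Of the 144, 76 could be tested in all 21, and 3 of these passed in all.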
